A study of Mus musculus with 9 samples.

Results

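Among the 37411 genes of the count table, 32 were chosen because their RNA was higher after 8 h of orexin A (OxA) and close to the vehicle level after 3 h. The cells were GT1-7-OX1, a pool of mouse GT1-7 cells that carries a lentiviral human OX1 orexin receptor driven by a CMV promoter. GT1-7 is a line of hypothalamic GnRH-secreting neurons immortalized with the SV40 T antigen, and a dividing line of this kind is a model of such neurons rather than the neurons themselves. All cultures grew in medium with serum and received fresh medium at the start of the treatment. Groups of 3 cultures each were sequenced after 200 nM OxA for 8 h, 200 nM OxA for 3 h, or vehicle (water) for 8 h, and OxA is the neuropeptide that activates this receptor. Vehicle cultures were taken at 8 h alone, and an effect of 3 h of OxA and an effect of the shorter time in fresh medium cannot be told apart.

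The genes were chosen by the values described here, so those values are a description and were not tested. Reads per gene were divided by the total of the culture and given per 1e+06 reads (CPM), and L is log2 of the mean CPM of a group plus 0.5. A gene was chosen when its mean at 8 h was at least 2 CPM, L at 8 h exceeded L in vehicle by at least 0.6, L at 3 h lay within 0.25 of L in vehicle, and each 8 h culture was above each 3 h and each vehicle culture. Of 12446 genes with at least 2 CPM at 8 h, 310 met the 8 h threshold and 33 of those lay inside the 3 h window. The small RNA gene *Gm22620* was then left out because its groups overlapped. By comparison, 213 of the 310 were higher than vehicle by at least 0.6 at 3 h as well. The plot of the differences at both times shows no gap at either threshold.

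**Figure D1:**
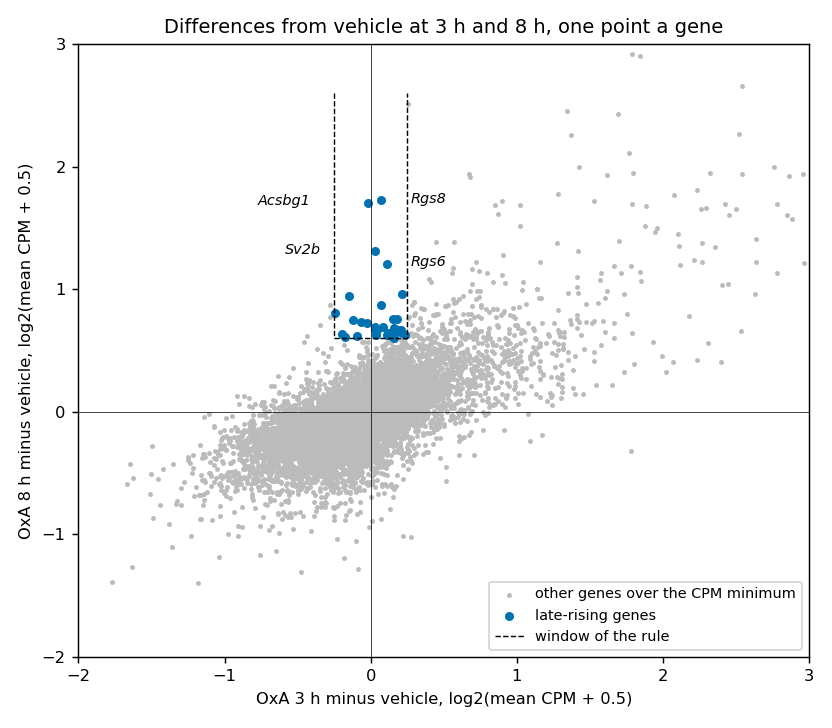
Each point is 1 of the 12446 genes with at least 2 CPM at 8 h, with the difference of OxA 3 h from vehicle on the x axis and of OxA 8 h from vehicle on the y axis, both in log2(mean CPM + 0.5). The dashed lines are the limits of the rule, the blue points are the 32 chosen genes, and 17 genes lie outside the axes. *Rgs8*, *Acsbg1*, *Sv2b* and *Rgs6* stand above the other chosen genes, most of which lie next to the lower limit.

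Orexin receptors are G-protein coupled receptors of the hypothalamus and its targets that act mainly through Gq, calcium, protein kinase C and ERK. Receptors of this kind first induce immediate early genes, many of them transcription factors, within the first hours. Genes that move later include those that need newly made protein or a lasting signal, and they commonly encode enzymes, receptors, cytoskeletal proteins and factors of cell growth such as the machinery that builds ribosomes. The 32 genes included enzymes, cytoskeletal proteins and factors that build ribosomes, and they are described below by role. Whether any of them needs newly made protein or a lasting signal was not tested.

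Of the 32 genes, 30 encode proteins, 1 is a long non-coding RNA and 1 is a small nucleolar RNA (snoRNA) inside it. They lie on 16 chromosomes. The 8 h level was between 1.53 and 3.88 times that of vehicle, with a median of 1.69, and it was at least 2 times the vehicle level for 6 genes. Levels ranged widely, with group means at 8 h of 2.29 to 326 CPM and a median of 12.3 CPM, against 0.774 to 208 CPM and a median of 6.99 CPM in vehicle. The lowest 8 h culture was between 1.01 and 2.64 times the highest of the other 6 cultures, and more than 1.5 times for 6 genes. Of the genes with at least 2 CPM at 8 h, 6.60% had each 8 h culture above each of the other 6, a property the rule used. On the deposited TPM values (transcript levels scaled to 1e+06, which allow for gene length), the groups of all 32 were likewise separate. The 8 h culture numbered 1 was the highest of its group for 18 of the 32 genes, and the culture numbered 2 was the lowest for 20.

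**Figure D2:**
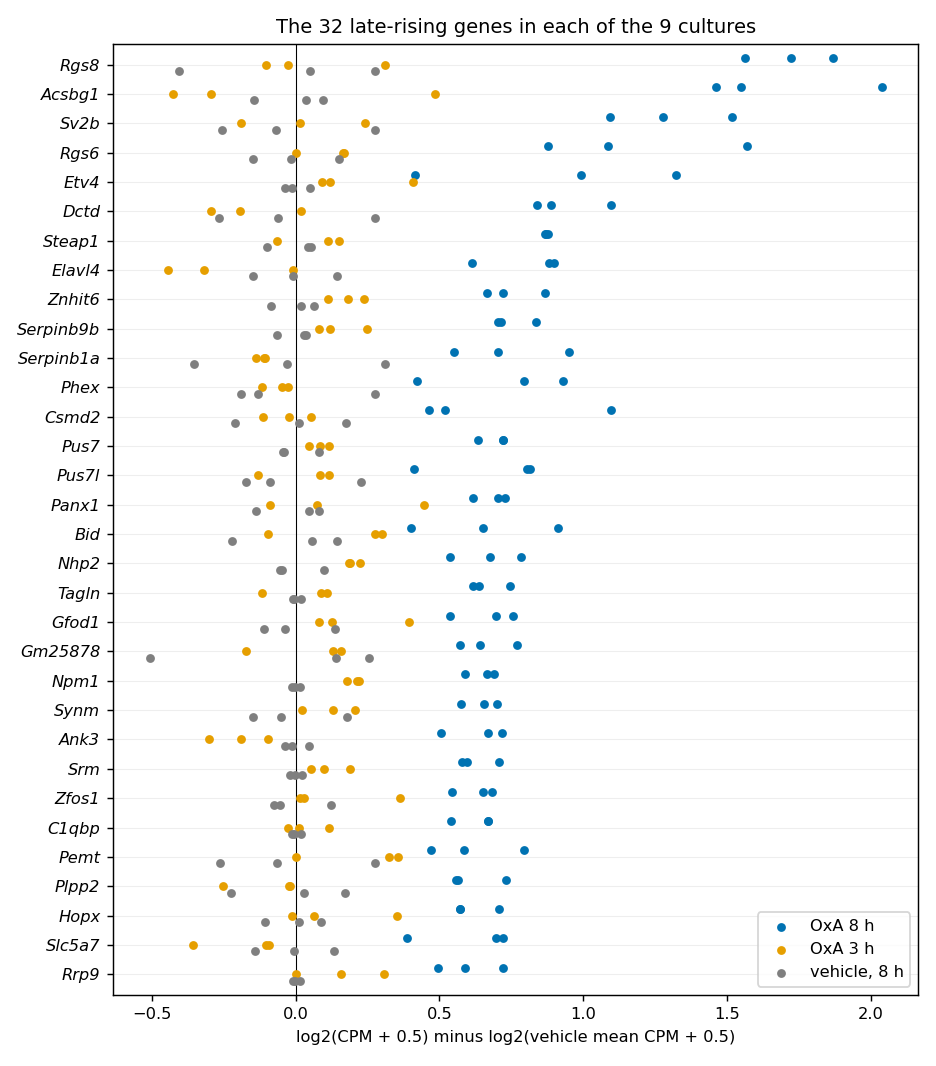
Each row is 1 of the 32 genes, and each point is a culture, placed by log2(CPM + 0.5) minus log2 of the vehicle mean CPM + 0.5, with OxA 8 h in blue, OxA 3 h in orange and vehicle in grey. All blue points lie right of the orange and grey ones, by the narrowest gap for *Etv4* and the widest for *Rgs8*, while the orange and grey points overlap or lie close to each other.

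The 32 genes were also read in a fit of all genes, which used the same counts as the rule and so cannot check the name "late". With edgeR's quasi-likelihood test and TMM scaling, 15.3% of the genes tested were higher at 8 h than in vehicle at an adjusted p under 0.05, and all 32 chosen genes were among them. Between 8 h and 3 h, 13.7% of genes were higher at 8 h, and 30 of the 32 were, the exceptions being *Pemt* and *Hopx*. Both counts follow from the rule. At 3 h against vehicle, 20.2% of genes were higher and 18.7% were lower, and of the 32 genes 8 were higher and none were lower at an adjusted p under 0.05, with 24 not called. The 8 were *Znhit6*, *Serpinb9b*, *Pus7*, *Nhp2*, *Gfod1*, *Npm1*, *Srm* and *Rrp9*. In this fit these 8 were called higher at both times. Their smaller difference at 3 h was largely fixed by the rule, whose 3 h window also limits how many are called then. The number of the 32 called higher at 3 h was 3 with upper quartile scaling (*Serpinb9b*, *Nhp2* and *Npm1*), 5 with DESeq2, 5 without vehicle replicate 1, 5 without OxA 3 h replicate 1, and up to 9 in other fits. Upper quartile scaling also moved the split of all calls at 3 h, with 2426 of 6145 calls higher, against 3104 of 5973 with TMM. In the TMM fit the median log2 fold change of the 32 genes was 0.82 at 8 h and 0.17 at 3 h, beside medians of -0.01 and -0.004 over all genes tested.

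The largest 8 h differences after *Rgs8* were those of *Acsbg1*, on chromosome 9 (mm10 chr9:54604877-54661870, minus strand). It encodes the bubblegum acyl-CoA synthetase, which joins long and very long chain fatty acids to coenzyme A and in brain is used as an astrocyte marker. *Acsbg1* had 10.8, 7.04 and 7.52 CPM in the 8 h cultures, 3.34, 1.54 and 1.73 CPM in the 3 h cultures and 2.31, 2.43 and 1.98 CPM in the vehicle cultures. The 8 h values were apart from the rest, and 1 of the 3 h cultures was above all vehicle cultures while the other two were below them. The 8 h mean was 3.77 times that of vehicle (8.44 ± 2.02 against 2.24 ± 0.23 CPM, SD, n = 3), and the fitted log2 fold change was 1.98 at 8 h (SE 0.19) and 0.06 at 3 h (SE 0.26). Without OxA 8 h replicate 1, its highest culture, the log2 fold change at 8 h was 1.75.

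The summed level of the 10 astrocyte markers, *Acsbg1* included, was 140 to 147 TPM at 8 h, 178 to 184 TPM at 3 h and 154 to 174 TPM in vehicle, mostly glutamine synthetase (*Glul*). *Aqp4* had no read in any culture, and *Gfap* averaged 0.0907 CPM at 8 h, 0.118 CPM at 3 h and 0.134 CPM in vehicle. Of the 7 astrocyte markers tested at 8 h, 2 were called higher (*Acsbg1* and *Gja1*) and 1 lower (*Glul*). Over all 15407 genes tested at 8 h, 2359 were called higher and 2018 lower. The GnRH neuron markers were all present, with summed levels of 3297 to 3453 TPM at 8 h, 4094 to 4311 TPM at 3 h and 3988 to 4568 TPM in vehicle. Of 10 general neuron markers 5 reached 2 TPM, and *Gap43* had no read. The 5 tested at 8 h held none called higher and 1 lower, *Map2* (log2 fold change -0.44, edgeR adjusted p = 6.59e-06). Of the 6 GnRH neuron markers *Isl1* was higher (0.12, edgeR adjusted p = 0.0367). Lower were *Gnrh1* (-0.35, edgeR adjusted p = 1.73e-05) and *Otx2* (-0.19, edgeR adjusted p = 0.0158). In RNA from whole cultures, a change in the number of cells that express a gene and a change in the RNA of each cell cannot be told apart.

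Calls among other genes of fatty acid activation were in both directions, as over all genes tested. Of 24 acyl-CoA synthetases and fatty acid transport genes, *Acsbg1* included, 17 were tested at 8 h, with a median log2 fold change of 0.09. Of the 17, 4 were higher, among them *Acsbg1*, whose rise the rule fixed, and 4 were lower. Over all 15407 genes tested at 8 h, 15.3% were higher and 2018 genes were lower. *Acsl4* was higher by 0.37 at 8 h (SE 0.05, adjusted p = 1.44e-06) and *Acsl5* by 0.37 (SE 0.07, adjusted p = 0.000264), while the acetate-activating *Acss2* fell by 0.52 (SE 0.09, adjusted p = 0.000104), all by edgeR. At 3 h 4 of 17 were higher and 4 lower, beside 20.2% and 18.7% of all genes tested. Only 2 were higher with upper quartile scaling and without vehicle replicate 1 or OxA 3 h replicate 2. With so few genes, these counts are not read as a trait of the list.

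To show where the promoter of *Acsbg1* stands, the 250 bases before its RefSeq start site (GRCm38.p6, chr9:54661886-54662135, minus strand) are printed in lower case, with capitals marking CCAAT boxes (CCAAT, or ATTGG on the other strand) and a match to the interferon-activated site TTCNNNGAA. The CCAAT boxes begin 83 and 53 bases before the start, and the TTCNNNGAA match begins 26 bases before it.
Acsbg1: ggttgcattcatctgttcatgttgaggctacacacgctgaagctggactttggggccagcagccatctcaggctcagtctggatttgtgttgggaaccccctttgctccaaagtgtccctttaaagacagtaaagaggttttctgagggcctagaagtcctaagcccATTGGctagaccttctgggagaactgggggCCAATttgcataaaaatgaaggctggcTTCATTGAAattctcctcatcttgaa

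*Rgs8* and *Rgs6* encode regulators of G-protein signalling, which speed the return of active G-protein alpha subunits to their resting state and so shorten receptor signals. *Rgs8* (chr1:153653025-153700323, plus strand) had 8.66, 6.89 and 7.77 CPM in the 8 h cultures, 2.61, 1.83 and 1.96 CPM in the 3 h cultures and 2.53, 1.39 and 2.09 CPM in the vehicle cultures. This was the widest gap of the 32 genes, with the lowest 8 h culture 2.64 times the highest of the other 6, and the 3 h and vehicle cultures overlapped. Its 8 h mean was 3.88 times that of vehicle (log2 fold change 2.01, SE 0.18), and the value was 2.22 without vehicle replicate 1 and 1.80 without vehicle replicate 2. *Rgs6* (chr12:82588292-83162056, plus strand), which pairs with the G-protein subunit Gβ5, had 4.35, 6.29 and 3.70 CPM at 8 h, 2.06, 2.07 and 1.79 CPM at 3 h and 1.76, 1.56 and 2.04 CPM in vehicle. The highest 8 h culture stood well above the other two, and without it (OxA 8 h replicate 2) the log2 fold change was 1.24 in place of 1.49.

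Of the 21 genes of the RGS family 9 were tested at 8 h, and 3 were higher (*Rgs6*, *Rgs7* and *Rgs8*) and 2 lower (*Rgs12* and *Rgs17*), against 1 higher and 4 lower at 3 h. The family and the relatives named in this and the following paragraphs were picked after the 32 genes were known. Counts by list or family of genes higher at 8 h include the chosen genes, whose rise the rule fixed. Over all 15407 genes tested the share called higher at 8 h was 15.3%, and 2018 genes were called lower. *Rgs7*, the closest relative of *Rgs6* among those detected, was higher by 0.40 at 8 h (SE 0.07, edgeR adjusted p = 5.33e-05) and stood at 0.18 at 3 h, a call lost with upper quartile scaling, with DESeq2 and in 5 other fits. *Rgs12* fell by 0.33 at 8 h (SE 0.05, edgeR adjusted p = 8.51e-06), with -0.56 at 3 h, and *Rgs17* fell by 0.47 (SE 0.06, adjusted p = 2.05e-06). *Gnb5*, the gene of Gβ5, had 20.1 ± 2.18 CPM at 8 h, 16.7 ± 0.367 CPM at 3 h and 21.4 ± 0.320 CPM in vehicle (SD, n = 3), and was called lower at 3 h (log2 fold change -0.26, SE 0.08, edgeR adjusted p = 0.0128) and not at 8 h. *Rgs9bp*, an anchor protein of such complexes, was lower at both times (log2 fold change -0.78 at 8 h, SE 0.20, edgeR adjusted p = 0.00479, and -1.27 at 3 h, SE 0.21, adjusted p = 3.91e-05).

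For *Rgs8* RefSeq gives 3 start sites. The 250 bases before the third (GRCm38.p6, chr1:153665423-153665672, plus strand) are printed to set beside *Acsbg1*, with the CCAAT box in capitals, which begins 100 bases before the start.
Rgs8: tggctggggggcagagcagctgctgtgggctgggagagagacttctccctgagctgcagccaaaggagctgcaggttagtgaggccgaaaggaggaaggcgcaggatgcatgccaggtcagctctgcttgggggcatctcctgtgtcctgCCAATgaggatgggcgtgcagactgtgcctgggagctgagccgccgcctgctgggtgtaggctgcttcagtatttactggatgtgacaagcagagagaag

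**Figure D3:**
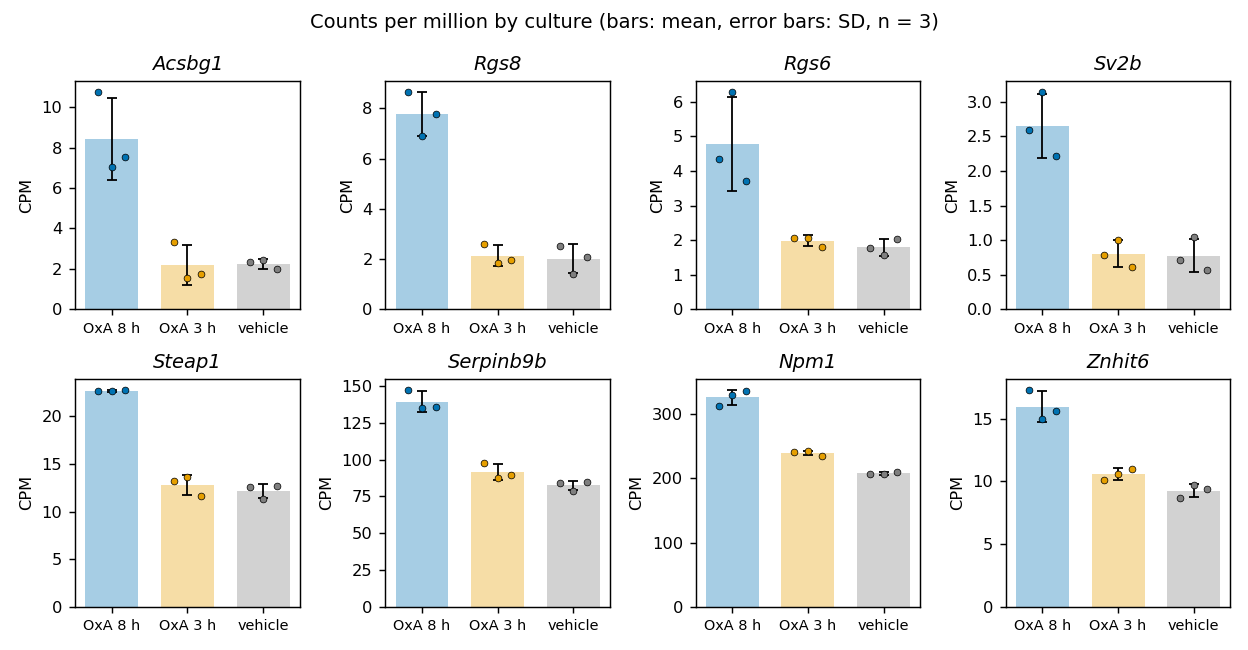
Each panel shows 1 gene in CPM on an axis from 0, with points for cultures, bars for group means and error bars for SD (n = 3), and with OxA 8 h, OxA 3 h and vehicle from left to right. *Acsbg1*, *Rgs8*, *Rgs6* and *Sv2b* had 3 h bars level with vehicle, while the 3 h bars of *Npm1*, *Serpinb9b* and *Znhit6* stood between vehicle and 8 h.

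A second group, formed by textbook role, encodes proteins of neurons, while no general neuron marker tested was called higher at 8 h. *Sv2b*, a synaptic vesicle glycoprotein, had 2.59, 3.15 and 2.22 CPM at 8 h, 0.788, 1.00 and 0.615 CPM at 3 h and 0.716, 1.04 and 0.566 CPM in vehicle. The 3 h and vehicle values overlapped, and the 8 h mean was 3.43 times that of vehicle (log2 fold change 1.84, SE 0.27). It was among 10 genes with under 5 CPM at 8 h, as were *Rgs6*, *Etv4* and *Elavl4*. Of its relatives, *Sv2c* was higher at both times (log2 fold change 1.496 at 8 h, SE 0.11, edgeR adjusted p = 4.45e-10, and 1.43 at 3 h) and *Sv2a* fell by 0.40 at 8 h (SE 0.08, edgeR adjusted p = 0.000381). Of 33 synaptic vesicle and release genes, 25 were tested at 8 h, and 6 were higher and 8 lower, with a median of -0.22. Over all 15407 genes tested at 8 h, 2359 were higher and 2018 lower. The calcium sensor *Syt1* of the same list fell by 1.03 at 8 h (SE 0.21, edgeR adjusted p = 0.000434) and stood at -0.70 at 3 h. The vesicular glutamate transporter *Slc17a6* was higher by 2.22 at 8 h (SE 0.33, edgeR adjusted p = 1.42e-05), beside 0.72 at 3 h (SE 0.44), with 1.89 CPM at 8 h, under the expression minimum of the rule, and 0.412 CPM in vehicle.

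*Elavl4*, a neuronal RNA-binding protein that stabilizes messages with AU-rich elements, had 2.93, 3.69 and 3.64 CPM at 8 h, 1.15, 1.30 and 1.73 CPM at 3 h and 1.98, 1.73 and 1.53 CPM in vehicle. The 3 h and vehicle cultures overlapped, and of the 32 genes it lay closest to the lower edge of the window, at -0.246. *Ank3*, whose product ankyrin-G organizes the axon initial segment, had 18.9, 19.6 and 16.8 CPM at 8 h, 10.2, 9.40 and 10.9 CPM at 3 h and 12.1, 11.4 and 11.6 CPM in vehicle. All 3 h cultures were below all vehicle cultures and all 8 h cultures were above both. *Ank2* just missed the 8 h threshold, at 0.598, and *Ank1* stood at 0.91 at 8 h and 1.07 at 3 h on the fitted log2 scale.

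*Slc5a7*, the high-affinity choline transporter of cholinergic terminals, had 3.33, 3.40 and 2.59 CPM at 8 h, 1.70, 1.71 and 1.34 CPM at 3 h and 2.09, 1.85 and 1.64 CPM in vehicle. The enzyme that makes acetylcholine, *Chat*, had only 0.0737 CPM at 8 h, 0.0772 CPM at 3 h and 0.0367 CPM in vehicle. *Csmd2*, a large CUB and sushi domain protein of synapses, averaged 6.19 ± 1.72 CPM at 8 h, 3.48 ± 0.23 CPM at 3 h and 3.55 ± 0.54 CPM in vehicle (SD, n = 3), with the 8 h spread set by 1 culture at 8.17 CPM. Without that culture (OxA 8 h replicate 1) its log2 fold change was 0.60 in place of 0.87. *Panx1*, a plasma membrane channel that releases ATP, had 20.1, 18.6 and 19.7 CPM at 8 h, 16.4, 12.6 and 11.2 CPM at 3 h and 12.3, 10.8 and 12.7 CPM in vehicle. The highest 3 h culture lay between the groups, and without it (OxA 3 h replicate 1) the 3 h log2 fold change was 0.07 in place of 0.26.

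A further group, formed by textbook role, works on RNA, much of it in the nucleolus. Of its genes, *Npm1*, *Nhp2* and *Znhit6* left the set when CPM was rescaled with TMM factors or with DESeq2 size factors. *Rrp9* left it with the DESeq2 size factors alone. Ribosomal RNA is cut, folded and chemically modified there by small nucleolar ribonucleoproteins (snoRNPs), of which the box C/D kind methylates ribose and the box H/ACA kind turns uridine into pseudouridine. *Npm1*, nucleophosmin, an abundant nucleolar chaperone, had the highest level of the 32 genes, with 312, 330 and 335 CPM at 8 h, 241, 242 and 235 CPM at 3 h and 207, 206 and 210 CPM in vehicle. The spread within each group was narrow and the groups formed steps, with all 3 h cultures between vehicle and 8 h. The log2 fold change was 0.71 at 8 h (SE 0.04) and 0.30 at 3 h (SE 0.04). *Npm1* ranked 226th among all genes of the table by mean TPM at 8 h.

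*Nhp2*, a core protein of the box H/ACA snoRNPs, had 41.2, 38.1 and 34.6 CPM at 8 h, 27.0, 27.1 and 27.7 CPM at 3 h and 22.9, 25.4 and 22.8 CPM in vehicle. *Rrp9*, a protein of the snoRNP that guides the first cuts of the ribosomal RNA precursor, had 44.4, 37.9 and 40.4 CPM at 8 h, 33.2, 29.8 and 26.7 CPM at 3 h and 27.0, 26.5 and 26.6 CPM in vehicle. Both thus had steps like those of *Npm1*, though the 3 h cultures of *Rrp9* spread from the vehicle level upwards. *Znhit6*, an assembly factor of the box C/D snoRNPs, had 17.3, 14.98 and 15.6 CPM at 8 h, 10.1, 10.6 and 11.0 CPM at 3 h and 8.70, 9.71 and 9.39 CPM in vehicle, with the 3 h cultures just above the vehicle ones. Its 8 h mean was 1.72 times that of vehicle (log2 fold change 0.85, SE 0.10). Of 18 snoRNP proteins and assembly factors, 17 were tested, and 11 were higher and none lower at 8 h (median log2 fold change 0.30), against 9 and 1 at 3 h (median 0.28).

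The pseudouridine synthases *Pus7* and *Pus7l*, which act without a guide RNA, were chosen too. *Pus7*, which modifies transfer RNAs and messages, had 61.9, 58.2 and 61.9 CPM at 8 h, 40.5, 38.5 and 39.6 CPM at 3 h and 36.2, 39.6 and 36.3 CPM in vehicle. Its relative *Pus7l* had 6.70, 4.94 and 6.66 CPM at 8 h, 3.94, 3.84 and 3.24 CPM at 3 h and 3.14, 3.35 and 4.30 CPM in vehicle. For both genes the 3 h and vehicle cultures overlapped. Of 13 pseudouridine synthase genes, all tested, 4 were higher at 8 h and none lower, with a median log2 fold change of 0.10, and the others higher were *Pus1* and *Dkc1*.

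The ribosome biogenesis list, of which *Npm1*, *Nhp2* and *Rrp9* are part, was higher as a whole. All 29 of its measured genes were called higher at 8 h, with a median log2 fold change of 0.64 beside -0.01 over all genes tested and 15.3% of all genes called higher. At 3 h 22 of the 29 were higher and 1, *Dkc1*, was lower, with a median of 0.35, and between 8 h and 3 h 14 were higher and 4 lower. The list held genes as high at 3 h as at 8 h, such as *Nop2* (0.91 at 8 h, SE 0.05, edgeR adjusted p = 6.15e-12, and 0.89 at 3 h) and *Ddx21* (0.78 at 8 h, SE 0.05, edgeR adjusted p = 5.62e-12, and 0.77 at 3 h), and *Gnl3*, which was lower at 8 h than at 3 h (0.77 at 8 h and 0.97 at 3 h, edgeR adjusted p = 0.0164 for the difference). The 3 chosen genes lay at 0.30, 0.30 and 0.25 at 3 h and at 0.74, 0.71 and 0.67 at 8 h. *Npm3*, a nucleoplasmin relative outside the list, was higher at 8 h by 0.46 (SE 0.09, edgeR adjusted p = 0.000453) and stood at -0.08 at 3 h (SE 0.11).

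**Figure D4:**
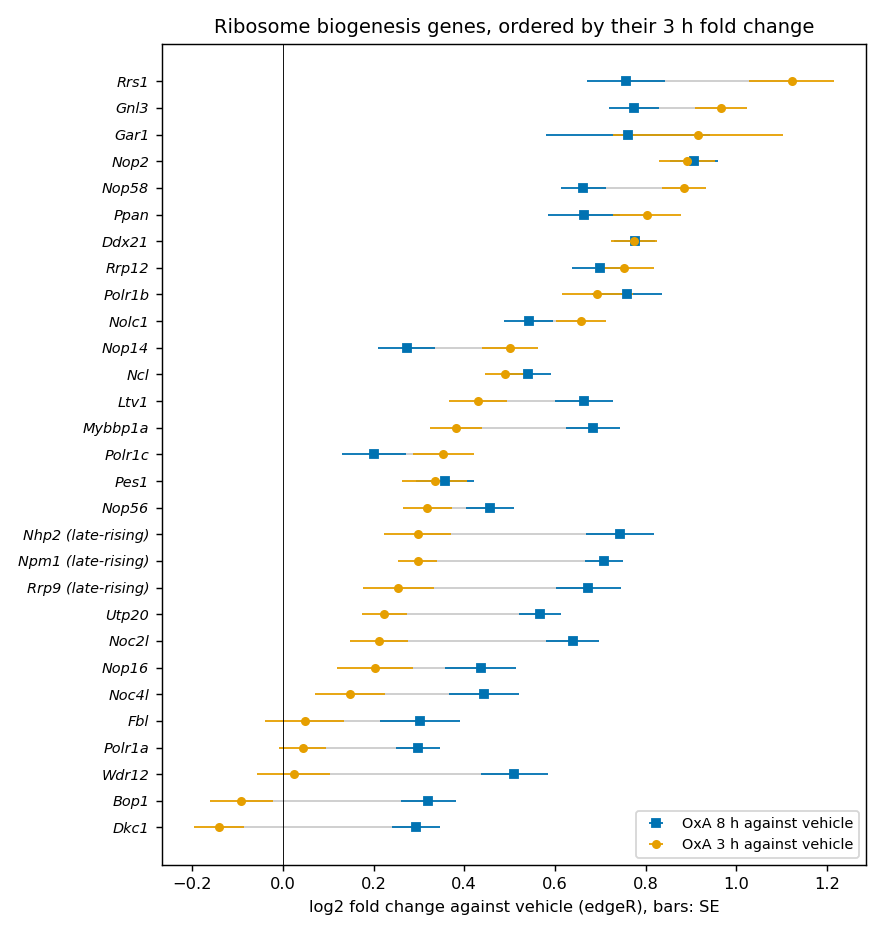
Each row is 1 of the 29 measured ribosome biogenesis genes, ordered by the 3 h value, with edgeR log2 fold changes against vehicle on the x axis for OxA 8 h (blue squares) and OxA 3 h (orange circles), and bars for SE. Genes at the top had 3 h values as high as or above their 8 h values, while *Nhp2*, *Npm1* and *Rrp9* and the genes below them had 3 h values well under their 8 h values.

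Of the 32 genes, 2 come from the same locus. *Zfos1* in the count table is the RefSeq long non-coding RNA Zfas1 (chr2:167062934-167065862, plus strand), a spliced host transcript of box C/D snoRNAs, and *Gm25878* (chr2:167063473-167063565, plus strand) is a snoRNA that lies inside it. *Zfos1* had 18.1, 16.4 and 17.8 CPM at 8 h, 14.4, 11.2 and 11.4 CPM at 3 h and 10.7, 12.1 and 10.5 CPM in vehicle. *Gm25878* had 2.74, 3.05 and 2.59 CPM at 8 h, 1.82, 1.77 and 1.34 CPM at 3 h and 1.98, 1.79 and 0.961 CPM in vehicle. Since one lies within the other and reads can come from the unspliced host, the 2 are not independent members, and how the counting shared their reads is not stated. *Znfx1*, which begins next to the locus on the other strand, had 177 ± 5.70 CPM at 8 h, 125 ± 4.12 CPM at 3 h and 175 ± 5.65 CPM in vehicle (SD, n = 3).

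Enzymes of small molecules made up a further group. *Srm*, spermidine synthase, had 66.6, 61.0 and 61.6 CPM at 8 h, 46.3, 43.5 and 42.2 CPM at 3 h and 40.0, 41.3 and 40.6 CPM in vehicle, with all 3 h cultures above all vehicle cultures. Of 7 polyamine enzymes and regulators tested at 8 h 6 were higher, *Srm* among them, and 5 were higher at 3 h. *Dctd*, the deoxycytidylate deaminase that supplies thymidylate synthesis with dUMP, had 13.9, 11.5 and 11.96 CPM at 8 h, 6.31, 5.38 and 4.98 CPM at 3 h and 7.65, 5.09 and 5.94 CPM in vehicle. The 8 h mean of *Dctd* was 2.002 times that of vehicle with a mean at 3 h under that of vehicle, and the log2 fold change of 1.06 became 1.24 without vehicle replicate 1, its highest vehicle culture. Of 8 pyrimidine deoxynucleotide enzymes tested, 3 were higher at 8 h and none lower, with a median of 0.10.

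*Pemt*, which makes phosphatidylcholine from phosphatidylethanolamine, was the least firm choice. It had 3.13, 2.65 and 2.40 CPM at 8 h, 2.12, 1.60 and 2.18 CPM at 3 h and 2.04, 1.503 and 1.24 CPM in vehicle, and it was kept in only 4 of the 9 choices that left out 1 culture each. *Plpp2*, a phosphatase of lysophosphatidate and related lipids, had 13.2, 11.7 and 11.7 CPM at 8 h, 7.64, 7.62 and 6.43 CPM at 3 h and 8.81, 7.92 and 6.56 CPM in vehicle, with the 3 h cultures inside the vehicle range or just below it. *C1qbp*, a mitochondrial matrix protein needed for translation in mitochondria, had 24.5, 22.3 and 24.4 CPM at 8 h, 16.5, 15.3 and 14.9 CPM at 3 h and 15.1, 15.4 and 15.04 CPM in vehicle. In these last 2 genes the 8 h cultures stood apart and the others overlapped.

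The transcription regulators among the 32 were *Etv4* and *Hopx*. *Etv4*, an ETS factor of the PEA3 group that acts downstream of ERK, had 3.52, 2.20 and 4.56 CPM at 8 h, 1.70, 1.65 and 2.18 CPM at 3 h and 1.60, 1.503 and 1.47 CPM in vehicle. Its lowest 8 h culture was only 1.01 times its highest 3 h culture, the narrowest gap of the set, and its log2 fold change of 1.20 at 8 h (SE 0.25) became 1.46 without that culture (OxA 8 h replicate 2). *Etv5* was higher at both times, by 0.80 at 8 h (SE 0.14, edgeR adjusted p = 0.00493) and by 0.71 at 3 h (SE 0.11, edgeR adjusted p = 0.000292). Of 24 ERK feedback and PEA3 genes 22 were tested, and 18 were higher and none lower at 8 h (median 0.75), against 15 and 3 at 3 h (median 0.93). The feedback genes *Dusp5*, *Spred2* and *Dusp7* had log2 fold changes of 1.87 at 8 h and 3.51 at 3 h (*Dusp5*), 1.69 and 2.58 (*Spred2*), and 0.71 and 1.15 (*Dusp7*). Each of these 3 was lower at 8 h than at 3 h (edgeR adjusted p = 1.67e-06, 4.71e-06 and 0.00105), while *Etv4* stood at 1.20 at 8 h and 0.37 at 3 h.

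*Hopx*, a small homeodomain protein that does not bind DNA, had 2.20, 2.20 and 2.47 CPM at 8 h, 1.82, 1.30 and 1.40 CPM at 3 h and 1.43, 1.33 and 1.19 CPM in vehicle, the lowest 8 h level of the 32. The 250 bases before its outermost RefSeq start (GRCm38.p6, chr5:77115124-77115373, minus strand) are shown because they hold a CArG box, the motif of serum response factor, in capitals from 83 bases before the start, beside a CCAAT box on the other strand.
Hopx: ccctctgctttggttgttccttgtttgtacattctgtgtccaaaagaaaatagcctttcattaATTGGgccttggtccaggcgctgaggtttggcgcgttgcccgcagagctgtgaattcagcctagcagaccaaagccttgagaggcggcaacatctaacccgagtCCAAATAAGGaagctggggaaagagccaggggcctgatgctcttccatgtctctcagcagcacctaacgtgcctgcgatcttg

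Cytoskeletal genes were few. *Tagln*, the actin-binding protein transgelin, had 27.0, 24.7 and 25.03 CPM at 8 h, 17.2, 14.7 and 16.9 CPM at 3 h and 15.8, 16.1 and 15.8 CPM in vehicle. *Synm*, the intermediate filament protein synemin, had 38.7, 42.2 and 40.9 CPM at 8 h, 26.2, 29.8 and 28.2 CPM at 3 h and 24.9, 23.2 and 29.3 CPM in vehicle. Both had clear gaps between 8 h and the rest, and for *Synm* the highest vehicle culture raised the vehicle mean, so that without vehicle replicate 3 its log2 fold change was 0.82 in place of 0.71.

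The promoter window of *Synm* (GRCm38.p6, chr7:67759743-67759992, minus strand) is printed because it holds an E-box CACGTG, the motif of MYC and related factors, in capitals from 193 bases before the start, and a CCAAT box on the other strand from 78 bases before it.
Synm: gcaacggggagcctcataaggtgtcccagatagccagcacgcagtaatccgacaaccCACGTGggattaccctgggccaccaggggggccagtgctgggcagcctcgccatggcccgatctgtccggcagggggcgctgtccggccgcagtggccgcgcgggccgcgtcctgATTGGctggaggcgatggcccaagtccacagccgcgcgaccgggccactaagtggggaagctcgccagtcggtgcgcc

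The remaining genes act at membranes, outside the cell or in cell death. *Serpinb9b* (chr13:33027416-33041884) and *Serpinb1a* (chr13:32842092-32851185), intracellular serine protease inhibitors of clade B, lie in the same cluster on chromosome 13. *Serpinb9b* had 148, 135 and 136 CPM at 8 h, 98.0, 87.3 and 89.6 CPM at 3 h and 84.2, 78.8 and 84.6 CPM in vehicle, with all 3 h cultures above all vehicle cultures. *Serpinb1a* had 2.84, 2.497 and 3.45 CPM at 8 h, 1.40, 1.36 and 1.40 CPM at 3 h and 1.101, 1.503 and 2.04 CPM in vehicle, with 3 h inside the vehicle range. Of 15 clade B genes of this cluster 7 were tested at 8 h, and 5 were higher, the 2 chosen genes among them, and none lower. The median log2 fold change at 8 h was 0.81, which is the value of *Serpinb9b* itself, and 2 were higher at 3 h. *Serpinb6b* was higher by 0.87 at 8 h (SE 0.09, edgeR adjusted p = 2.21e-05) and by 0.40 at 3 h (SE 0.11), and *Serpinb9* by 0.37 at 8 h (SE 0.06, edgeR adjusted p = 0.000109) with 0.08 at 3 h. These paralogs are similar in sequence, so reads could have been split or lost among them in a way the sources used here do not describe.

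*Steap1*, a membrane protein of the metalloreductase family, had the tightest 8 h group of the 32, with 22.7, 22.6 and 22.8 CPM at 8 h, 13.2, 13.6 and 11.6 CPM at 3 h and 12.5, 11.3 and 12.7 CPM in vehicle. The 3 h and vehicle cultures overlapped and the 8 h mean was 1.86 times that of vehicle. *Steap2*, of the same family, was higher by 0.46 at 8 h (SE 0.04, edgeR adjusted p = 2.91e-08) and lower at 3 h (log2 fold change -0.22, SE 0.05, adjusted p = 0.000662). *Phex*, a membrane protein related to endopeptidases and known for its part in phosphate balance, had 5.18, 5.74 and 3.88 CPM at 8 h, 2.67, 2.72 and 2.52 CPM at 3 h and 3.47, 2.37 and 2.49 CPM in vehicle. *Bid*, the pro-apoptotic BCL2-family protein that links death receptors to mitochondria, had 10.4, 7.14 and 8.57 CPM at 8 h, 6.61, 4.90 and 6.49 CPM at 3 h and 5.50, 4.45 and 5.88 CPM in vehicle. In *Bid* the lowest 8 h culture was 1.08 times the highest of the others, the next narrowest gap after *Etv4*. Of 10 genes of the BCL2 family tested 3 were higher and 3 lower at 8 h, beside 2359 higher and 2018 lower of all 15407 genes tested. *Gfod1*, named for an oxidoreductase domain, had 24.9, 21.3 and 23.9 CPM at 8 h, 19.2, 15.9 and 15.4 CPM at 3 h and 14.1, 16.02 and 13.4 CPM in vehicle.

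Promoter sequences before RefSeq start sites were found for 23 of the 32 genes, in 37 windows of 250 bases before to 50 after a start, with a median GC content of 54.3% beside 52.7% over all 32851 windows. Short motifs were searched on both strands. The E-box CACGTG was in 10.8% of the windows of the chosen genes (*Hopx*, *Pus7*, *Sv2b* and *Synm*) and 7.15% of all windows, and the CArG box was in 8.11% (*Elavl4* and *Hopx*) and 1.63%. The full cyclic AMP response element TGACGTCA was in none of the 37 and in 1.79% of all windows, its core TGACGT, which the full element contains, in 2.70% and 7.51%, and AP-1 TGANTCA in 2.70% and 7.81%. EGR motifs were in none (GCGTGGGCG) and 2.70% (GCGGGGGCG), beside 0.612% and 2.91% of all windows, and the motif CACCCCAC was in none and 2.87%. CCAAT was in 45.9% and 37.4%, GGGCGG in 37.8% and 35.7%, GGAAA in 62.2% and 61.3%, TATAAA in 8.11% and 13.6%, and TTCNNNGAA in 8.11% and 8.30%. Several windows of one gene overlap, so the windows are not independent, and these shares are a description of letters and not of bound factors.

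The choice was then repeated with the cultures of 1 replicate number left out. The rule was applied to 2 of the 3 replicate numbers, and the genes it gave were read in the cultures of the number left out. Those genes are not the same as the 32. The genes chosen without number 1 included 21 of the 32, without *Acsbg1*. Those chosen without number 2 included 23 of the 32, and those without number 3 included 23. Of 34 genes chosen without number 1, 32 were higher at 8 h than in vehicle in its cultures, as were 38 of 38 without number 2 and 36 of 37 without number 3, beside 40.3%, 40.0% and 40.4% of all genes over the expression minimum. The median difference of OxA 8 h from vehicle in the left-out cultures was 0.63, 0.61 and 0.59 on the log2(CPM + 0.5) scale, against 0.67, 0.73 and 0.72 in the cultures used to choose. The 3 h side held less well, since 21 of 34, 23 of 38 and 22 of 37 genes stayed within 0.25 of vehicle at 3 h in the left-out cultures, shares of 61.8%, 60.5% and 59.5% beside 55.9%, 55.3% and 60.7% of all genes. In the left-out cultures most such genes were thus higher at 8 h, while lying inside the 3 h window was about as frequent among them as among all genes. Each such reading set 1 culture against 1 culture, and genes of the same cultures are not replicates. All genes over the expression minimum are not matched for their 8 h rise, so these values are a description and were not tested.

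**Figure D5:**
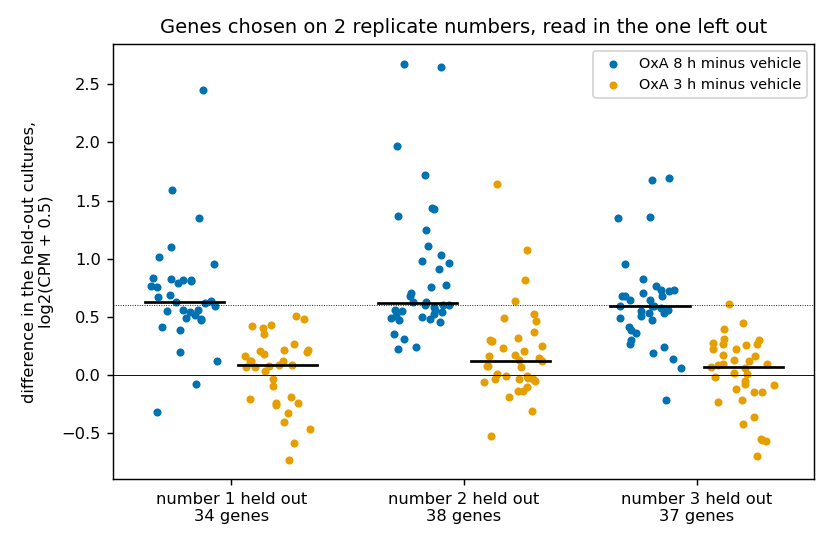
Each point is a gene chosen on 2 replicate numbers, placed by its difference from vehicle in the cultures of the third in log2(CPM + 0.5), for OxA 8 h (blue, left) and OxA 3 h (orange, right), with black lines for medians and a dotted line at 0.6. The medians of the 8 h differences were 0.63, 0.61 and 0.59, and the 3 h points spread to both sides of 0. The medians of the 3 h differences were 0.08, 0.12 and 0.07, beside -0.09, -0.11 and -0.07 over all genes above the expression minimum.

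How firmly a gene belonged to the set varied. Of the 32, 12 were chosen again in each of the 9 repeats that left out 1 culture, and 10 of these also with TMM factors, with DESeq2 size factors and with totals that excluded the abundant RNAs mt-Rnr2, mt-Rnr1 and Rn7sk. Those 10 were *Rgs8*, *Sv2b*, *Rgs6*, *Steap1*, *Serpinb9b*, *Phex*, *Pus7*, *Pus7l*, *Tagln* and *C1qbp*. Being kept means passing the rule again and not a lack of change at 3 h. In the TMM fit *Serpinb9b* and *Pus7* were called higher at 3 h. With TMM factors *Etv4*, *Znhit6*, *Nhp2*, *Gfod1*, *Npm1* and *Pemt* were not chosen. The same genes were lost with DESeq2 size factors, and so were *Panx1*, *Bid* and *Rrp9*. *Acsbg1* was lost only when OxA 3 h replicate 1 was left out. Next to the 8 h threshold lay *Rrp9* (0.605) and *Slc5a7* (0.610) inside, and *Ank2* (0.598) and *Arpc1b* (0.596) outside. Next to the 3 h window lay *Elavl4* (-0.246) and *Pemt* (0.236) inside, and *Mmd* (0.255) and *Pxmp2* (0.256) outside. At the expression minimum *Hopx* (2.29 CPM) and *Sv2b* (2.65 CPM) were inside, and *Fer1l6* (1.31 CPM) and *Slpi* (1.20 CPM) were outside. On overlap *Etv4* and *Bid* were just inside, and *Gm22620* was outside, with its lowest 8 h culture at 0.983 times the highest of the others.

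Between 16217786 and 20445364 reads were assigned to genes in the 8 h cultures, 16487142 to 17877485 in the 3 h cultures and 17293093 to 18168541 in the vehicle cultures, with 21031 to 21618 genes detected, and 2 of the 8 h cultures were deeper than every culture of the other groups. Within groups the median coefficient of variation of the 32 genes was 8.16% at 8 h, 9.92% at 3 h and 9.85% in vehicle. The sparsest genes, those with fewer than 50 reads in at least 1 of the 8 h cultures, numbered 6. Their levels rest on the fewest reads. In the annotation 16 of the 32 genes overlap another gene, 7 of them on the same strand, and since the strand setting of the counting is not given in the sources used here, reads of such neighbours may be included.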

How the data were processed

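RNA was sequenced from 9 cultures of GT1-7-OX1 cells, 3 per group, after ribosomal RNA depletion with a stranded kit. The preparation was repeated to give 3 samples per group, and nothing further is said of separate cultures, so p-values measure only the spread between these cultures. Per the submitters' processing notes (the study's methods give another Trimmomatic version), the authors trimmed reads with Trimmomatic 0.3, aligned them to mm10 with STAR 2.5.2a and counted them with HTSeq 0.6.0, which gave the deposited counts per gene. The authors also deposited TPM values (transcript levels scaled to 1e+06), used here for ranks and marker levels. The deposited normalized counts from DESeq2 1.10.1 and the authors' comparison tables, which hold mean levels, log2 fold changes, standard errors and p-values, were not used. The gene annotation and strand setting of the counting are not given in the sources used here.

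CPM was the count divided by the total of the culture, times 1e+06, with 0.5 added before log2. The fits used edgeR 4.0.16 in R 4.3.3 (filterByExpr, TMM, robust quasi-likelihood test, Benjamini-Hochberg adjustment over all genes tested, 2 groups per fit, called at an adjusted p under 0.05), were tested on simulated data, and print no p for the 32 genes, since the rule used the same counts. Alternatives were DESeq2 1.42.0, RLE and upper quartile scaling, no filter on low counts, all 9 cultures in 1 fit, a replicate block, leaving out each culture, and other limits of the rule. The members and lists were chosen with earlier results of these data known, and the families (RGS to BCL2) and the relatives named with them were picked after values were seen. All 32 members are named; of fixed pathway lists that hold a member, up to 3 other genes with the lowest adjusted p at 8 h among those called are named, and other genes were picked later, with their values known. Of 29 fixed pathway lists 5 hold a member, of which the list of cytoskeletal genes is not reported here, and the other 24 lists, in which many genes were called, are not described. Gene positions are from GENCODE M21 (GRCm38/mm10) and promoters from RefSeq (GRCm38.p6), with *Zfos1* matched as Zfas1. Tables were handled with Python 3.11.15, pandas 2.3.3 and NumPy 2.4.6, and plots with matplotlib 3.10.9.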

Additional observations from a re-analysis of the deposited data

Results flagged for a closer look

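Among all genes tested, 4277 of 15278 differed between OxA 8 h and OxA 3 h (edgeR adjusted p under 0.05), 2096 of them higher and 2181 lower at 8 h. The 16 below come from the fixed lists that hold a chosen gene or are relatives of one, with the log2 fold change of OxA 8 h over OxA 3 h. The genes higher at 8 h were *Slc17a6* by 1.51, *Steap2* by 0.69, *Npm3* by 0.54, *Serpinb6b* by 0.48, *Acsl5* by 0.46, *Actn1* by 0.30, *Serpinb9* by 0.29, *Rgs12* by 0.24 and *Rgs7* by 0.22. Those lower at 8 h were *Dusp5* at -1.64, *Spred2* at -0.88, *Sept6* at -0.59, *Acss2* at -0.54, *Dusp7* at -0.43, *Sept9* at -0.21 and *Gnl3* at -0.19. The values of the 32 chosen genes are not listed here, since the rule used this difference.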

How the results depend on the processing

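The number of late-rising genes, 32, depended most on the limits of the rule. It was 18 and 53 with a 3 h window of 0.15 and 0.35, and 63, 8 and 4 with an 8 h threshold of 0.5, 0.8 and 1. It was 39 with TMM factors (26 shared with the 32), 34 with DESeq2 size factors (23 shared), 33 without mt-Rnr2, mt-Rnr1 and Rn7sk in the totals (31 shared), and 27 to 41 when 1 culture was left out. The median 8 h difference in left-out cultures was 0.61 on average and 0.59 for number 3. With 1 culture left out, the calls numbered 3376 to 4260 for 8 h against vehicle (4377 with all cultures), 5016 to 5776 for 3 h against vehicle (5973) and 3371 to 4166 for 8 h against 3 h (4277). DESeq2 gave 3426, 4775 and 3324 calls.

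The replicate numbers were not taken to pair the cultures. The study's methods describe repeats that gave 3 samples per group, but do not say that a number marks a repeat. A pairing by repeat is thus possible, and the main fits do not allow for it. The correlations of the deviations of same-numbered cultures were 0.00762 to 0.162, all positive. Those of differently numbered cultures were -0.117 to 0.0698, and not every culture correlated best with its own number. A fit with the replicate block gave 5558 calls for 8 h against vehicle, 6500 for 3 h against vehicle and 5348 for 8 h against 3 h. All 32 genes were called higher at 8 h than in vehicle in every fit run, which the choice of the genes from the same counts largely fixed. Of named values no direction reversed, and the calls at 3 h of *Rgs7* and *Serpinb6b* were lost in some fits, that of *Serpinb6b* with the replicate block (adjusted p = 0.0524, edgeR), without vehicle replicate 1 and without OxA 3 h replicate 1. Where a value changed, the cause was not tested. Low counts limit the 6 genes with fewer than 50 reads in an 8 h culture.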
